A study of Homo sapiens with 40 samples.

Results

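The genes described here encode SETDB1 and the proteins it works with in the KAP1 and HUSH silencing pathways. They were taken by name from the gene count table, with current or former symbols allowed, and number 8 of the 62486 rows: SETDB1, TRIM28 (the gene of KAP1), ATF7IP, ATF7IP2, MORC2, MPHOSPH8, PPHLN1 and TASOR (formerly FAM208A). The cells were A549, an established human lung adenocarcinoma line, grown in serum-containing medium. Control (CT) cells were set against knockout (KO) cells, whose SETDB1 gene had been targeted by CRISPR/Cas9 with guides carried on the PX458 plasmid. The series also holds ChIP-seq and Hi-C data, which were not used here. The labels do not say whether the KO cells are 1 clone or a pool, which residues the guides cut, or whether the controls received a plasmid. RNA was measured by stranded total RNA-seq in 3 libraries per genotype, and nothing in the labels says that these came from separate cultures, so p-values measure only the spread between these libraries.

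SETDB1 trimethylates lysine 9 of histone H3 (H3K9me3), which marks silenced chromatin. KRAB zinc finger proteins bind DNA and recruit KAP1, which in turn brings SETDB1. ATF7IP binds SETDB1 and keeps it stable and in the nucleus, and ATF7IP2 is its paralog, known mainly from the germline. The HUSH complex, made of TASOR, MPHOSPH8 and PPHLN1, silences L1 elements and other transgene-like sequences and works with SETDB1 and the ATPase MORC2.

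The 250 bases before the outermost annotated start are shown for 4 of the genes: SETDB1, the gene disrupted, ATF7IP, the gene that rose most, and TASOR and PPHLN1, HUSH subunits that rose by almost the same amount. The sequences are RefSeq's on GRCh38.p14, read in the direction of the gene. Of the 8 genes, 6 were matched in the promoter table, and ATF7IP2 and TRIM28 were not. Capitals mark matches on either strand to any of 4 motifs. The GC box was searched as GGGCGG and the CCAAT box by the letters of its name. The E-box was searched as CACGTG. The ETS motif was searched as CCGGAAG. A match is a stretch of letters and no measure of binding.

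SETDB1 (chr1:150926013-150926262, plus strand): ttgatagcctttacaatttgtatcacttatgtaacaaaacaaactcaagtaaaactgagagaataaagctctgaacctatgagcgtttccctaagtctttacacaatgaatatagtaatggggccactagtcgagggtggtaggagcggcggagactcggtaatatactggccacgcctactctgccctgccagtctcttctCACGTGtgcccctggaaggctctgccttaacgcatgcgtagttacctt

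ATF7IP (chr12:14365432-14365681, plus strand): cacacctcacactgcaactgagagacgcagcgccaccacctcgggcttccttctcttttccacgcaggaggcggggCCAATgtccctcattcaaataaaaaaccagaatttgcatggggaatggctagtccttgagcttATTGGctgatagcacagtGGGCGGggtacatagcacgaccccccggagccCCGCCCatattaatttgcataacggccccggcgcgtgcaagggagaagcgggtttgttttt

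TASOR (chr3:56683266-56683515, minus strand): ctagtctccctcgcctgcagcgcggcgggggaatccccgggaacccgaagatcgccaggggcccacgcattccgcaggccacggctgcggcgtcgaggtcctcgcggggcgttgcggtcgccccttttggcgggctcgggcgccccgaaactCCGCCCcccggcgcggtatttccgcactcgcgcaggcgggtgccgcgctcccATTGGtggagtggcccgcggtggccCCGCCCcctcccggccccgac

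PPHLN1 (chr12:42325917-42326166, plus strand): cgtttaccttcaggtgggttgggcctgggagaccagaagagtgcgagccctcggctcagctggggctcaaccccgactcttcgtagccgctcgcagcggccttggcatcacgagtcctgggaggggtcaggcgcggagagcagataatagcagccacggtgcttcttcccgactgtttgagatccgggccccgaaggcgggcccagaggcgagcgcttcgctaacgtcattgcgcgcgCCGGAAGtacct

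The libraries held 18065062 to 48364919 counts, and the mitochondrial transcript MT-RNR2 took 18.7% to 21.5% of them. After filtering, 17767 genes were tested, and each of the 8 genes passed the filter. Log2 CPM of all tested genes correlated at 0.994 to 0.996 within a genotype and 0.924 to 0.929 between genotypes (across genes, which are not independent). CPM are counts scaled to a common library size (edgeR's TMM scaling). Since no transcript lengths were used, levels are compared between libraries and not between genes. The epithelial genes KRT8, KRT18, CDH1 and EPCAM were detected in every library, at control means of 2271, 779, 27.1 and 4.01 CPM. All 4 were higher in KO, at 6594, 2583, 52.4 and 10.8 CPM, or 1.54, 1.73, 0.95 and 1.41 on the log2 scale (edgeR adjusted p 7.5e-21, 2.2e-23, 8.4e-15 and 1.4e-12), so the epithelial markers moved with the genotype, and their part in the results on the 8 genes was not tested. PTPRC (leukocytes) had 0 or 1 count per library, COL1A2 (fibroblasts) had 0 in all 6, and GFAP (astrocytes) was at 1.27 to 1.82 CPM in control and 1.48 to 1.92 CPM in KO.

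SETDB1 (ENSG00000143379, chromosome 1) was examined first because it was the gene disrupted. It was measured at 37.5, 39.6 and 38.7 CPM in the control libraries and at 23.4, 21.2 and 21.1 CPM in the KO libraries. All KO values lay below all control values, and 473 to 1047 counts per KO library remained. The KO mean was 56.8% of the control mean, or -0.82 on the log2 scale (SE 0.060, 95% interval -0.94 to -0.70, adjusted p 1.7e-12 by edgeR's quasi-likelihood test). Of all tested genes, 7.27% had a lower fold change. Counts over the whole gene do not check the edit itself, and in RNA from bulk cells a lower level in every cell cannot be told apart from a loss in some of them.

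ATF7IP (ENSG00000171681, chromosome 12), the stabilising cofactor of SETDB1, rose more than any other of the 8 genes. Its values were 68.1, 61.7 and 66.0 CPM in control and 316, 298 and 291 CPM in KO. The genotypes were far apart, with 1117 to 1921 counts in control and 6525 to 14702 in KO libraries. The fold change was 4.61-fold, or 2.21 on the log2 scale (SE 0.048, 95% interval 2.11 to 2.30, edgeR adjusted p 2.0e-24), and 95.6% of tested genes had a lower fold change. RefSeq lists 6 separate starts for this gene in the promoter table, and the gene count does not say which of them was used.

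The paralog ATF7IP2 (ENSG00000166669, chromosome 16) also rose. It was measured at 10.3, 9.27 and 10.3 CPM in control and at 16.5, 15.2 and 14.2 CPM in KO, on 168 to 751 counts per library. All KO values lay above all control values, and the log2 fold change was 0.61 (SE 0.082, edgeR adjusted p 2.2e-07). The rise of ATF7IP was larger, since the log2 ratio of ATF7IP2 to ATF7IP counts within a library went from -2.71 ± 0.030 to -4.30 ± 0.052 (SD, n = 3 each, exact permutation p 0.1, two-sided). That is the smallest p that 3 against 3 libraries can give.

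TRIM28 (ENSG00000130726, chromosome 19), which encodes the scaffold KAP1 that links zinc finger proteins to SETDB1, did not pass the test. It was measured at 553, 622 and 622 CPM in control and at 545, 596 and 585 CPM in KO. The genotypes overlapped, since the lowest control library lay below 2 of the 3 KO libraries. The log2 fold change was -0.057, with a 95% interval of -0.15 to 0.040 (edgeR adjusted p 0.30). Without control replicate 1, the lowest control library, it was -0.11 with an edgeR adjusted p of 0.025, so the call rests on that library. In either fit the difference was small beside those of SETDB1 and ATF7IP.

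**Figure D1:**
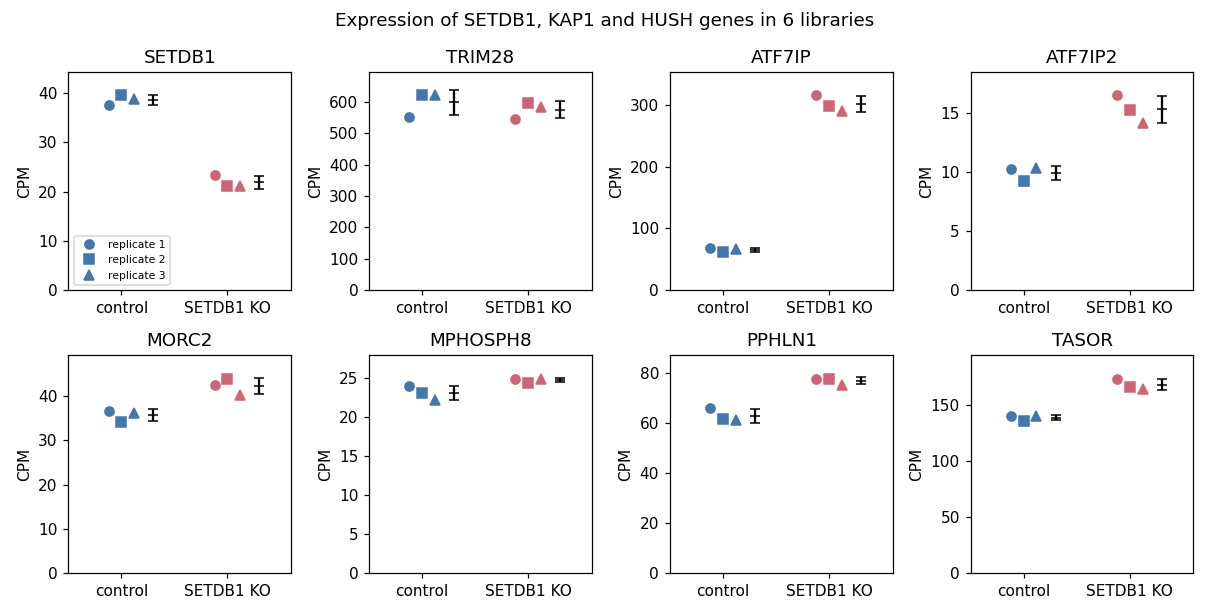
Expression in CPM (y axes, each starting at 0 with its own scale) of the 8 genes in the control and SETDB1 KO libraries, with 1 symbol per replicate and the mean ± SD in black. SETDB1 is lower in all 3 KO libraries, ATF7IP is at 291 to 316 CPM in KO against 61.7 to 68.1 in control, and TRIM28 overlaps between genotypes.

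Of the 3 HUSH subunits, TASOR and PPHLN1 rose by similar amounts and MPHOSPH8 did not pass the test. TASOR (ENSG00000163946, chromosome 3), the large scaffold of the complex, was at 140, 136 and 140 CPM in control and at 173, 166 and 164 CPM in KO. PPHLN1 (ENSG00000134283, chromosome 12), which encodes periphilin, was at 66.1, 61.6 and 61.4 CPM in control and at 77.8, 77.9 and 75.5 CPM in KO. For both genes every KO library lay above every control library, with a narrow gap beside that of ATF7IP. The log2 fold changes were 0.27 for TASOR (SE 0.042, edgeR adjusted p 2.4e-06) and 0.29 for PPHLN1 (SE 0.048, edgeR adjusted p 6.7e-06), or 121% and 122% of the control mean. The gene CCDC66 overlaps TASOR in RefSeq, lies on the opposite strand and has 11.2% as many counts. It fell by 0.40 on the log2 scale (SE 0.076, edgeR adjusted p 4.6e-05). Whether counting used strand is not stated, and a share of its reads in the TASOR count was not tested.

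MPHOSPH8 (ENSG00000196199, chromosome 13), whose chromodomain binds H3K9me3, was at 24.0, 23.1 and 22.1 CPM in control and at 24.9, 24.4 and 24.8 CPM in KO. The KO values lay just above the highest control value. The log2 fold change of 0.10 did not pass (95% interval -0.026 to 0.23, edgeR adjusted p 0.16). PSPC1 overlaps MPHOSPH8 on the opposite strand, has 181% as many counts and did not pass either (-0.025, edgeR adjusted p 0.70). Whether PSPC1 reads entered the MPHOSPH8 count, and so its ratios to other genes, was not tested. Within libraries, the log2 ratio of MPHOSPH8 to TASOR counts went from -2.59 ± 0.067 to -2.76 ± 0.039 (SD, n = 3 each, exact permutation p 0.1), without overlap. The ratio of PPHLN1 to TASOR was -1.14 ± 0.056 in control and -1.12 ± 0.033 in KO (SD, n = 3 each, exact permutation p 0.8), with overlap. These within-library ratios do not depend on how libraries are scaled.

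MORC2 (ENSG00000133422, chromosome 22), the ATPase that compacts chromatin at HUSH targets, was measured at 36.6, 34.0 and 36.0 CPM in control and at 42.3, 43.8 and 40.2 CPM in KO. All KO values lay above all control values. The KO mean was 119% of the control mean, or 0.25 on the log2 scale (SE 0.055, edgeR adjusted p 3.3e-04). The antisense gene MORC2-AS1 had 1.05% as many counts.

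Counted together, 6 of the 8 genes passed an adjusted p of 0.05, where 62.8% of all tested genes did. Higher in KO were 5 of the 8, against 32.8% of all tested genes, and lower was 1, against 30.0%. KO and control CPM ranges were separate for 7 of the 8, including MPHOSPH8, and for 65.8% of all tested genes. The share of genes called is thus close to the background and says nothing particular about these 8. Of the 8, only ATF7IP was called with a change of at least 2-fold, as were 2613 of the 17767 tested genes. Without SETDB1, the median log2 fold change of the other 7 was 0.27, against 0.0038 for all tested genes, whose median lay between -0.031 and 0.034 under other scalings.

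SETDB1 was then set against the other genes within each library. Its share of the summed counts of all 8 was 4.01%, 4.01% and 3.89% in control and 1.92%, 1.71% and 1.73% in KO. The log2 ratio of SETDB1 to the sum of the other 7 went from -4.60 ± 0.027 to -5.78 ± 0.095 (SD, n = 3 each), a difference of -1.18 (exact permutation p 0.1, two-sided). TRIM28 makes up most of that sum in control, and without ATF7IP in it the difference was -0.87. Against single genes, the difference ranged from -0.76 for TRIM28 and -0.92 for MPHOSPH8, through -1.06 for MORC2, -1.09 for TASOR, -1.11 for PPHLN1 and -1.44 for ATF7IP2, to -3.03 for ATF7IP. In all 7 pairs the genotypes did not overlap, and each had an exact permutation p of 0.1 (0.1 adjusted over the 7 pairs), the smallest possible. SETDB1 counts enter every pair, so the 7 pairs are not separate results and largely restate the fold changes given above. The widest shift was thus against the cofactor ATF7IP, which rose where SETDB1 fell.

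**Figure D2:**
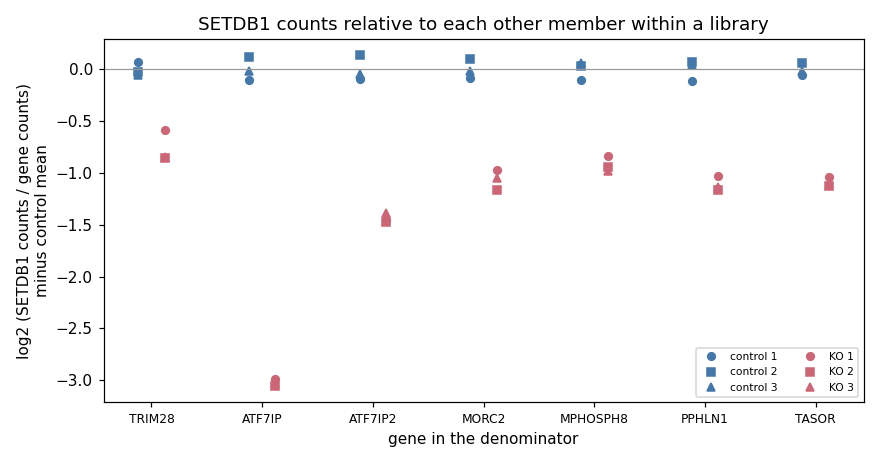
The log2 ratio of SETDB1 counts to those of each other gene (x axis) within a library, minus the mean of the 3 control libraries (y axis), with 1 symbol per replicate, control in blue and KO in red. All KO points lie below all control points for each of the 7 genes, with ATF7IP lowest at about its mean of -3.03.

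Fold changes differed between chromosomes in these data, so each gene was set beside its neighbours. The median log2 fold change was 0.37 on chromosome 12, which holds ATF7IP and PPHLN1, and 0.34 on chromosome 19, which holds TRIM28. PPHLN1, at 0.29, lay below the median of its 40 nearest tested genes (20 on either side), which was 0.41, and 35 of those 40 lay above 0. ATF7IP, at 2.21, lay 1.90 above the median of its own 40, which was 0.30. TRIM28, at -0.057, differed by -0.38 from the median of its 25 neighbours near the chromosome end, which was 0.33, and 22 of these lay above 0. With 40 neighbours a side in place of 20 the medians were 0.70 for TRIM28 and 0.32 for ATF7IP, and with 10 they were 0.28 and 0.60. Whether a shift of the chromosome as a whole has a part in the values of ATF7IP, PPHLN1 or TRIM28 was not tested.

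The other genes lay on chromosomes with medians nearer to 0. The neighbours of TASOR had a median of -0.0085, those of MORC2 0.081, those of ATF7IP2 0.050 and those of MPHOSPH8, of which there were 20, -0.078 (0.12 with 10 a side). These 4 genes lay 0.28, 0.17, 0.56 and 0.18 above their neighbours. SETDB1 differed by -0.97 from the median of its 40 neighbours, which was 0.15 (0.28 with 10 a side and 0.0017 with 40).

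Of the genes near SETDB1, ATF7IP and TRIM28, those named here were chosen after their values were seen. The tested genes on either side of SETDB1, ARNT and CERS2, had log2 fold changes of 0.14 and 0.30, the second with an edgeR adjusted p of 4.9e-06. The call for ARNT (edgeR adjusted p 0.032) was lost in 6 of 14 alternatives. CTSS, 3 genes away, rose by 1.64 (edgeR adjusted p 4.4e-18). Of the 40 nearest tested genes of SETDB1, 24 lay above 0 and 16 below. Next to ATF7IP, PLBD1 rose by 2.22 (SE 0.10, from 3.31 to 15.7 CPM, edgeR adjusted p 4.1e-17), much the same as ATF7IP itself. On the other side GRIN2B fell by 2.32 on the log2 scale (from 11.8 to 2.41 CPM, edgeR adjusted p 1.6e-16), and LINC01559 beyond it rose by 3.75 (from 1.93 to 25.6 CPM, edgeR adjusted p 2.9e-22). PLBD1 lies on the opposite strand from ATF7IP. The rest of the 3 tested genes on either side of ATF7IP differed widely. EMP1 rose by 0.65 and H4C16 by 0.15 (edgeR adjusted p 1.1e-09 and 0.023). PLBD1-AS1 rose by 3.59 at low levels (from 0.23 to 2.79 CPM, edgeR adjusted p 9.5e-12). TRIM28 is flanked by ZBTB45 and CHMP2A, which rose by 0.65 and 0.33 (edgeR adjusted p 5.6e-08 and 6.6e-07). The next gene beyond ZBTB45, SLC27A5, was at 0.014 (edgeR adjusted p 0.91). Beyond CHMP2A, UBE2M was at -0.19 (edgeR adjusted p 9.4e-04).

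**Figure D3:**
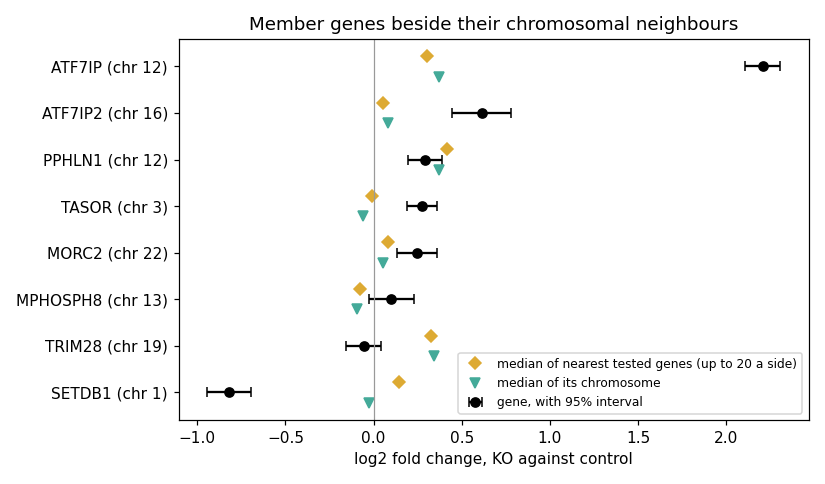
Log2 fold change of each gene, KO against control (x axis), with its 95% interval in black, beside the median of its nearest tested genes (diamonds) and of its chromosome (triangles). PPHLN1 lies near both medians, ATF7IP lies 1.90 above its neighbours, and TRIM28 and SETDB1 lie below theirs.

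The other genes of the pathway were read from a list of 51, of which 50 were tested and MORC1 was not. Of the 50, 15 rose and 20 fell, so 70% were called where 62.8% of all tested genes were, and their median log2 fold change was -0.068. On chromosome 2, whose median was -0.54, all 5 listed genes fell, and on chromosome 12, whose median was 0.37, all 5 rose. On chromosome 19, whose median was 0.34, 3 of 8 listed genes rose, 4 fell and 1 did not pass. The share of all genes called on each of these chromosomes was not counted. Besides the 5 largest changes each way, CBX1, CBX5, TASOR2, UBE2E1, SUMO3, ATF2 and MBD1 are named, chosen after their values were seen. Off chromosomes 2, 12 and 19, a split chosen after seeing the data, 18 of 32 were called, 7 higher and 11 lower. The share of all tested genes called off these chromosomes was not counted, so this count has no background beside it.

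Among the partners of KAP1, 7 of 20 rose and 8 fell, so 75% were called, beside 62.8% of all tested genes (32.8% higher and 30.0% lower). ZNF274 encodes a zinc finger protein that brings KAP1 and SETDB1 to the 3′ ends of zinc finger genes. It lies on chromosome 19, whose median was 0.34, and rose by 2.10 (SE 0.054, from 19.7 to 84.5 CPM, edgeR adjusted p 8.0e-23). TRIM24, a relative of KAP1, rose by 1.46 (from 53.1 to 147 CPM). CHD3, an ATPase of the NuRD deacetylase complex that KAP1 binds, rose by 0.72 (from 186 to 308 CPM). Of the 3 genes of HP1 proteins, which read H3K9me3, CBX3 fell by 0.46 on the log2 scale (from 277 to 202 CPM). CBX1 fell by 0.14 on the log2 scale (from 115 to 105 CPM, edgeR adjusted p 0.010), a call lost in 4 of 14 alternatives, among them without control replicate 3 (-0.12, edgeR adjusted p 0.070) and without KO replicate 2 (-0.10, edgeR adjusted p 0.089). CBX5, on chromosome 12, rose by 0.45 (from 368 to 504 CPM).

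Among 12 tested HUSH-related factors, 2 rose and 5 fell, so 58.3% were called, again near the 62.8% of all tested genes. RESF1, which binds SETDB1 and lies on chromosome 12, rose by 1.18 (SE 0.055, from 73.2 to 166 CPM, edgeR adjusted p 1.4e-14). MORC4, a relative of MORC2, fell by 1.38 on the log2 scale (SE 0.043, from 228 to 87.9 CPM, edgeR adjusted p 8.4e-21). TASOR2, the paralog of TASOR, lay at the threshold (-0.096, edgeR adjusted p 0.052) and passed it in 5 of 14 alternatives, among them without control replicate 3 (-0.12, edgeR adjusted p 0.048).

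Among 15 SUMO and ubiquitin genes, 4 rose and 6 fell, so 66.7% were called. Of all tested genes 62.8% were called, 32.8% higher and 30.0% lower. The UBE2E enzymes, which attach ubiquitin to SETDB1, were all lower in KO. UBE2E2 fell by 0.77, UBE2E3, on chromosome 2, by 0.58 and UBE2E1 by 0.30 on the log2 scale (edgeR adjusted p 1.5e-09, 1.2e-09 and 2.1e-05). SUMO3, whose product can modify KAP1, rose by 0.47 (from 52.8 to 73.4 CPM, edgeR adjusted p 3.8e-09). Several of these genes have paralogs or pseudogenes, and the labels do not say where reads that match several of them were counted. All 3 listed partners of ATF7IP were called, 2 higher and 1 lower, where 62.8% of all tested genes were called. ATF7 on chromosome 12 rose by 0.64 and ATF2 on chromosome 2 fell by 0.23 on the log2 scale. MBD1 on chromosome 18 rose by 0.15 (edgeR adjusted p 0.018).

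**Figure D4:**
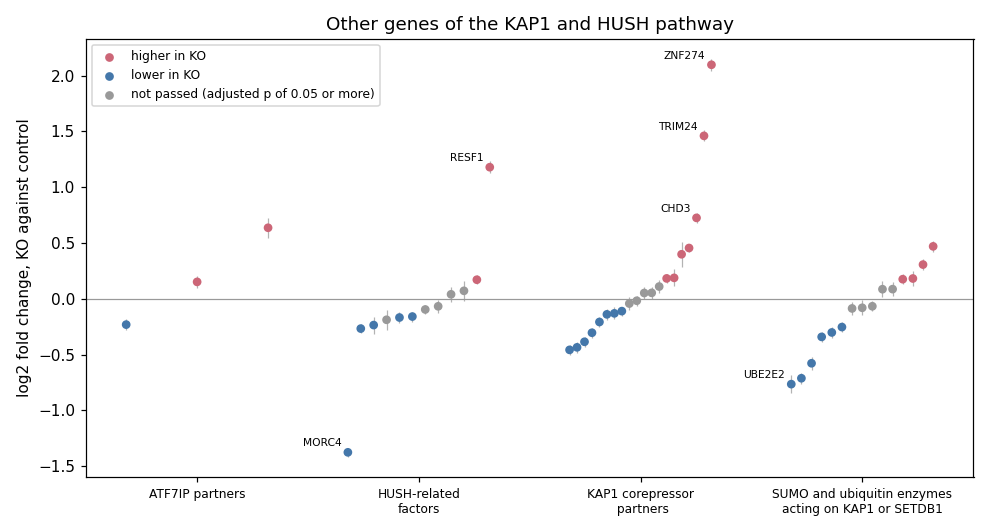
Log2 fold change, KO against control (y axis), of the 50 tested pathway genes in 4 groups (x axis), with bars for the SE, red for higher, blue for lower and grey for an adjusted p of 0.05 or more. ZNF274, TRIM24 and RESF1 lie highest at 2.10, 1.46 and 1.18, and MORC4 lies lowest at -1.38.

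The genes whose log2 CPM followed SETDB1 most closely over the 6 libraries were PPP2R1B, UST, ELOVL2, CASP8 and VRK2, with Pearson correlations of 0.9992 to 0.9999. PPP2R1B, for example, was at 39.6 ± 0.65 CPM in control and 25.7 ± 1.14 CPM in KO (SD, n = 3 each). Of 10993 genes with a mean of at least 5 CPM, 335 (3.05%) had a correlation of at least 0.99. Over the same libraries SETDB1 correlated at -0.99 with ATF7IP, -0.96 with PPHLN1, -0.95 with TASOR, -0.94 with ATF7IP2, -0.93 with MORC2, -0.82 with MPHOSPH8 and 0.35 with TRIM28. Among the 10993 genes, 27.1% had a correlation of -0.9 or lower and 19.4% of -0.95 or lower, so such values were common, and the 6 libraries share only 2 genotypes.

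Among the genes that rose, ATF7IP, MORC2 and TASOR held a GC box and a CCAAT box, PPHLN1 held neither, and ATF7IP2 had no window. The window was read at 1 start per gene, although ATF7IP has 6 annotated starts, TASOR 3 and PPHLN1 2. In the 250 bases before the outermost start, GC content was 46% for SETDB1, 55.6% for ATF7IP, 64.8% for PPHLN1, 66.4% for MPHOSPH8, 68% for MORC2 and 76.4% for TASOR, against a median of 62% over 15841 protein-coding genes. SETDB1 had 9 CpG sites there and TASOR 37, against a median of 17. A GC box was found for ATF7IP, MORC2, MPHOSPH8 and TASOR, and in 55.8% of all these promoters. The same 4 genes held a CCAAT box, found in 34.5% of promoters. Of the 2 genes without either, SETDB1 held an E-box (7.8% of promoters), 48 bases before the start, and PPHLN1 an ETS motif (11.8%). No CRE (TGACGTCA, 2.29% of promoters) and no TATA box (TATAAA, 9.36%) was found in these 6 windows. ATF7IP, the only one of the 6 to rise at least 2-fold, shared both motifs with MPHOSPH8, which did not pass the test.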

How the data were processed

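RNA-seq values were the authors' deposited counts, whole numbers for each gene ID without normalisation. Per the submitters' processing notes, STAR 2.6.1c, edgeR 3.30.0 and the hg19 build were among the tools used, with no role given. The counter, annotation and strand setting are not given in the sources used here. Peak, TAD and compartment files were not used here, since placing genes on hg19 needs an annotation of that build. Every per-sample column was mapped by the labels (0 unmapped).

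IDs were matched to symbols for 93.9% of rows, and 87.9% of tested genes were placed in order by a RefSeq table on GRCh38.p14. Counts were fitted over all genes in R 4.3.3 with edgeR 4.0.16 (filterByExpr, TMM, robust quasi-likelihood test with a single term, the genotype). P-values were adjusted after Benjamini and Hochberg with a threshold of 0.05. The fit was also run on simulated data with few changed genes, which does not test it where most genes are called, as here. SE is the log2 fold change over the square root of F. Alternatives used DESeq2 1.42.0, limma 3.58.1 voom, other scalings and filters, a replicate block, and leaving out each library. No 2 libraries agreed within sampling noise. Members and lists were chosen with earlier results of these data known. Besides the members, genes were named as the 5 largest changes each way of the pathway list, related genes picked after their values were seen, the 5 most like SETDB1, and neighbours picked after their values were seen. One gene that the rule names is not reported here, and one listed marker, PECAM1, was not analysed here.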

Additional observations from a re-analysis of the deposited data

How the results depend on the processing

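Of the 8 genes, 7 kept direction and call in all 14 alternatives. TRIM28 kept its direction (-0.11 to -0.015) and passed only without control replicate 1, where 2 genes were lower in place of 1 (1 to 2 over all libraries left out). MPHOSPH8 passed in none (edgeR, DESeq2 or voom adjusted p 0.064 to 0.46). Deviations of same-numbered control and KO libraries correlated weakly, at 0.11, 0.064 and 0.047. Those of differently numbered libraries correlated at -0.11 to 0.048. These values do not settle whether the replicate numbers pair the libraries. With the replicate block 11655 genes, 6 members and 37 pathway genes were called, against 11157, 6 and 35 without it. Over the 14 alternatives that kept the whole list, 29 (without KO replicate 3) to 37 pathway genes were called, against 35. DESeq2 called 30, as did edgeR without control replicate 3 or KO replicate 2. The 15 higher and 20 lower became 16 and 17 with library size only and 12 and 23 with upper quartile scaling. The ratio of SETDB1 to the other members differed by -1.34 on the log2 scale as a mean of log2 counts, by -1.72 without TRIM28 and, an alternative chosen after seeing the data, by -0.87 without ATF7IP. Also chosen then, leaving out chromosomes 2, 12 and 19 gave 18 called pathway genes, among fewer tested. PSPC1 changed sign around 0, to 0.0045 with library size only, 0.013 without a filter, and between -0.052 and 0.0093 over libraries left out. Medians of 10 or 40 neighbours a side moved by more than the spread between libraries for every gene but ATF7IP2. The causes were not tested. Levels per transcript length, and peaks and compartments at these genes, were not run.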
